A study of Rattus norvegicus with 10 samples.

Results

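Cell division genes were followed here as a set of 36 gene names from DNA replication, the cyclin and kinase steps that drive the cycle, and mitosis. Each name was looked up in the deposited gene table, and 34 were found among its 32883 features, each on 1 feature. The names Ccnb2 and E2f1 were matched to no feature and are not analysed here. The libraries came from muscle of Sprague Dawley rats and fall into 3 groups: 3 labelled TZG (26, 27 and 43), 3 labelled MPS (10, 11 and 14) and 4 labelled NC (4, 5, 6 and 7). The series concerns myofascial pain syndrome and a liquid extract named Tianhe zhuifeng, and the titles of the TZG samples call them drug, but the labels do not spell out the group codes. They give no muscle, age, sex, dose, time or way of inducing pain, so nothing is known here of what the groups share beyond strain and tissue. The comparisons ask how transcripts in muscle differed in MPS from NC, and in TZG from MPS and from NC.

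A dividing cell copies its DNA and then splits it between daughter cells. Before replication, Cdc6 and the MCM helicase are loaded at origins. The sliding clamp PCNA then holds the polymerases on the template, and ribonucleotide reductase, thymidylate synthase and thymidine kinase supply the nucleotides. Cyclins with the kinase CDK1 take the cell into mitosis, where kinesins, Aurora kinases and the spindle checkpoint place and hold the chromosomes until the anaphase-promoting complex releases them. Mature muscle fibres have left the cycle, and the cells of muscle that can divide include satellite cells, endothelial cells, fibroblasts and blood-borne cells. In such bulk samples, fewer cells of a type and less RNA per cell cannot be told apart.

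The cell division genes stood far higher in MPS 14 than in any other library, and MPS 14 also stood apart from the rest of the series. The libraries held 12616160 to 18179144 counts in all, and values are given as CPM, the counts scaled to a common library total, unless stated. The summed level of 5 skeletal muscle fibre markers, headed by Acta1 and Ckm, was 5906 CPM in MPS 14, against 99550 to 153400 CPM across the other 9. Lymphocyte markers had the opposite order: the summed level of 6 T cell markers was 1062 CPM in MPS 14 and at most 5.61 CPM elsewhere, and that of 5 B cell markers was 1580 CPM in MPS 14 and at most 1.77 CPM elsewhere. Mitochondrial transcripts took 9.71% of counts in MPS 14 and 18.7% to 38.6% in the others. The labelled tissue was thus borne out by fibre markers in 9 libraries and only weakly in MPS 14, which is given apart in every result. TZG 43 stood apart in another way, with 91.0 CPM of 5 keratinocyte markers against at most 7.77 CPM in the other libraries. It is likewise named wherever a value rests on it.

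Summed over the 34 genes, the level in MPS 14 was 1285 CPM (95% exact interval 1266 to 1304, covering counting error only). The sums in the other libraries were 139.8, 117.4 and 118.5 CPM in TZG 26, 27 and 43, 183.6 and 137.0 CPM in MPS 10 and 11, and 155.9, 206.8, 263.9 and 254.9 CPM in NC 4, 5, 6 and 7. MPS 14 was far above both of its group mates, and in plain CPM the TZG sums lay below every NC sum. That order of TZG and NC depended on the scaling and on 3 genes. In normalised CPM, where library totals are scaled by TMM factors, the sums were 168.6, 127.3 and 170.4 CPM in TZG 26, 27 and 43 and 148.5, 210.1, 216.7 and 238.2 CPM in NC 4, 5, 6 and 7, so they overlapped. Rrm1, Tpx2 and Pcna, the most abundant of the genes outside MPS 14, made up 42.5 to 65.8 CPM of the plain sums in TZG and 90.8 to 193.4 CPM in NC. The other 31 genes summed to 74.0, 52.1 and 76.0 CPM in TZG 26, 27 and 43 and to 65.2, 66.1, 119.5 and 61.5 CPM in NC 4, 5, 6 and 7. The median gene stood at 17.8 CPM in MPS 14, against 0.632 to 2.64 CPM elsewhere. All 34 genes reached 1 CPM in MPS 14, against 12 to 26 of them elsewhere. A total of 33 of the 34 genes had their highest level in MPS 14, the exception being Tpx2. The background is high: of the 14727 features with 50 or more counts over the series, 55.7% had their highest plain CPM in MPS 14, and 36.6% did after scaling by normalisation factors, where 33 of the 34 were again highest there. By size the set stood further out. Relative to the pooled other 9 libraries, 24 of the 34 genes were at least 8-fold higher in MPS 14 in plain CPM, against 12.4% of the features, and the median fold was 15.0 for the genes and 1.83 for the features. MPS 14 is a single library, so these folds describe it and carry no test.

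**Figure D1:**
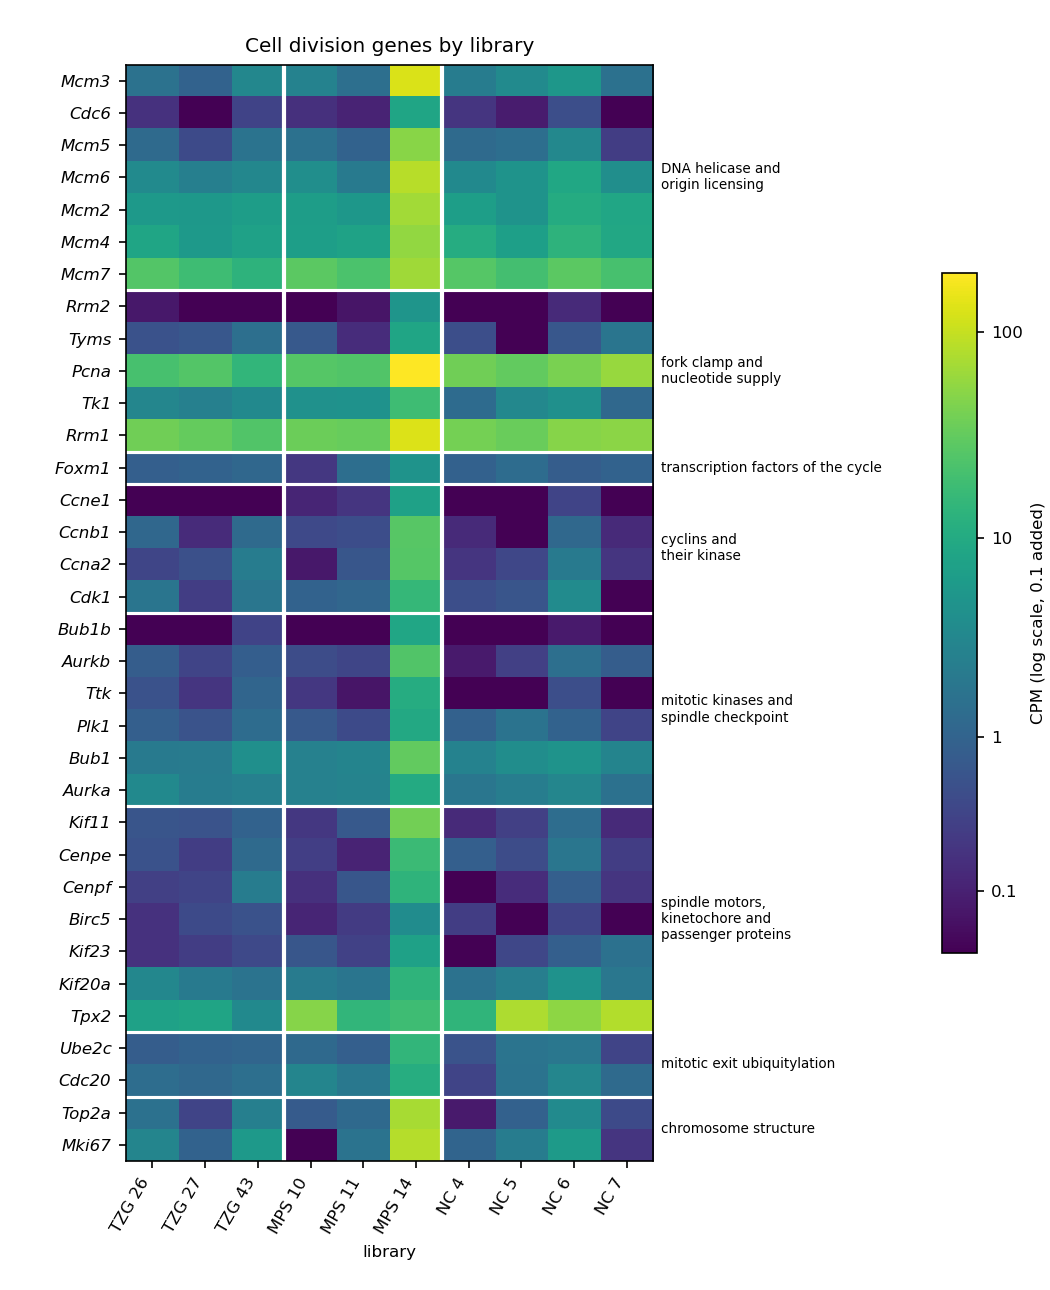
Level of each of the 34 cell division genes (rows, grouped by role) in each of the 10 libraries (columns), as CPM on a log colour scale with 0.1 added. The MPS 14 column is the brightest for every gene but Tpx2, which was brightest in 3 of the NC libraries and MPS 10; the summed level in MPS 14 was 1285 CPM against 117.4 to 263.9 CPM in the other libraries.

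**Figure D2:**
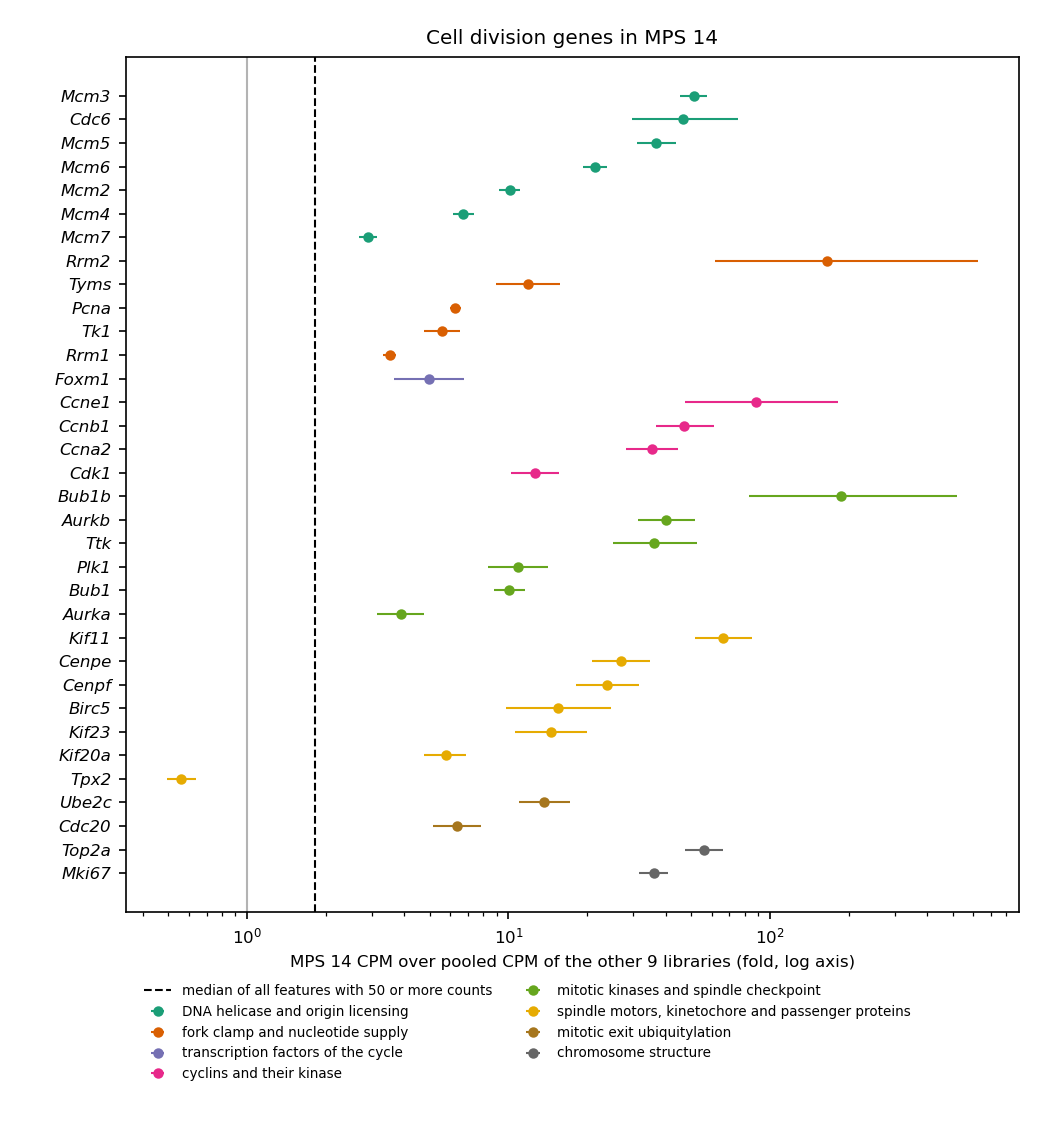
CPM in MPS 14 divided by the pooled CPM of the other 9 libraries for each gene (log axis), coloured by role, with 95% exact intervals for counting error. The dashed line is the median of all features with 50 or more counts, 1.83; every gene lies to its right except Tpx2.

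Promoters are shown for the gene that stood highest in MPS 14 in each role group with a RefSeq promoter, since these genes moved together there. RefSeq promoters on rat build GRCr8, each running from 250 bases before to 50 bases after the start of the gene, were matched to 26 of the 34 genes. Capitals mark matches, on either strand, to 3 short motifs known from cell cycle promoters: an E2F-type motif (TTCCCGC, or with other middle letters TTGGCGC, or again TTCGCGC), a cell cycle homology region or CHR (TTTGAA or else TTCGAA), and a CCAAT box (CCAAT). Matches may share letters, as in Mki67, where ATTGG, the CCAAT box read on the other strand, starts at the last A of TTTGAA. Mcm3 lies at chr9:30733697-30733996 (minus strand), Pcna at chr3:139955771-139956070 (minus strand) and Ccnb1 at chr2:33655176-33655475 (minus strand). Bub1 lies at chr3:135504872-135505171 (minus strand), Kif11 at chr1:244536617-244536916 (plus strand), Cdc20 at chr5:137255750-137256049 (minus strand) and Mki67 at chr1:199952544-199952843 (minus strand). The sequences read 5′ to 3′ along the gene.
Mcm3: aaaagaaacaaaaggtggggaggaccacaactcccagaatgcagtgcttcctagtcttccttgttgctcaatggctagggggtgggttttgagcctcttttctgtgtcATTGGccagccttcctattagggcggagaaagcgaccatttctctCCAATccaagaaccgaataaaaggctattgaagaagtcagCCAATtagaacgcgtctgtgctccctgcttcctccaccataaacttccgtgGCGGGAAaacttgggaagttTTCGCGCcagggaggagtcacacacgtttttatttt
Pcna: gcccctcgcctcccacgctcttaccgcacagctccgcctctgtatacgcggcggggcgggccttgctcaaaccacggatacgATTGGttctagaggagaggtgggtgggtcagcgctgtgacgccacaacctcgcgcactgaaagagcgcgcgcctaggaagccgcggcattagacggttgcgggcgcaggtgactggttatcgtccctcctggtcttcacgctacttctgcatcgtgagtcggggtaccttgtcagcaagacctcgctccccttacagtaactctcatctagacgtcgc
Ccnb1: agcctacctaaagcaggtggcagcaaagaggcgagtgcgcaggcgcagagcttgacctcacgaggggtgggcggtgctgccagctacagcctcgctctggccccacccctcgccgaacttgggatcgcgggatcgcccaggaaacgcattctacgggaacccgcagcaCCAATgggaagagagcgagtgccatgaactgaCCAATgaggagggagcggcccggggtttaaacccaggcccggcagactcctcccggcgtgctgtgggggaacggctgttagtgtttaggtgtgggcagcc
Bub1: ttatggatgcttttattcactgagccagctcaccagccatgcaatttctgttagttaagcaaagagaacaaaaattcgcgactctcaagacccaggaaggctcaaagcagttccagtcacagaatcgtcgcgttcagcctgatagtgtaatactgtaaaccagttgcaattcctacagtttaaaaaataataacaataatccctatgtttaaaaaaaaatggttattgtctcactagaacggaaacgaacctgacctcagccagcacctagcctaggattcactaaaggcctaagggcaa
Kif11: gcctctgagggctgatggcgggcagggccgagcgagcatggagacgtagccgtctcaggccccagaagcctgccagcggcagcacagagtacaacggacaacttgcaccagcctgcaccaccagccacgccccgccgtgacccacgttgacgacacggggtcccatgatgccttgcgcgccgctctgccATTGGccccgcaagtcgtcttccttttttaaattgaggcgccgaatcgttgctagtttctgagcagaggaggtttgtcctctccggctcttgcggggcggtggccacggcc
Cdc20: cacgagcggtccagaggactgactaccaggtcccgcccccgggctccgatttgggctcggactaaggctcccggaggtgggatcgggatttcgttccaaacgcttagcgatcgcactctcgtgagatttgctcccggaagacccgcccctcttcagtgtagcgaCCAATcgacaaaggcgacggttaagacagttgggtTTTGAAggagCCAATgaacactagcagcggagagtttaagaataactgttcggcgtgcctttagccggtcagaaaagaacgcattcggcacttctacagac
Mki67: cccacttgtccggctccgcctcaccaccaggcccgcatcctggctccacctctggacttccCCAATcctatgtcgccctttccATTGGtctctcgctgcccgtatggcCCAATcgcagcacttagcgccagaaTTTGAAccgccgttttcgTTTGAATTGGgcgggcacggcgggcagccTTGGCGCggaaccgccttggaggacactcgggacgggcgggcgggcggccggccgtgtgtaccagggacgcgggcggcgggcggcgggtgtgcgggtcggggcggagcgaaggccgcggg

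An E2F-type match was present in 10 of the 26 promoters (38.5%), against 7.52% of all 33469 RefSeq promoters of the same length. They belonged to Mcm2, Mcm3, Mcm5, Mcm6, Mcm7, Rrm1, Tyms, Cdk1, Kif23 and Mki67, so all 5 MCM promoters in the table held one. A CHR match was present in 13 of the 26, against 19.7% of all promoters, and it was found in Bub1b, Ttk, Plk1, Cenpf, Kif23, Birc5, Cdc20, Cdk1, Top2a, Mki67, Mcm2, Mcm7 and Rrm1. A CCAAT box was present in 19 of the 26 (73.1%), against 37.5%. Bub1, shown above, held none of the motifs. These matches describe letters in the window and do not show that a factor binds there.

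The helicase and licensing genes had a median fold of 21.5 in MPS 14, over a range of 2.90 to 51.0. Mcm3, a subunit of the replicative helicase (chromosome 9, 26914057 to 26932201 in the files' coordinates, whose build is not given in the sources used here), stood at 1.65, 0.976 and 3.19 CPM in TZG 26, 27 and 43, at 2.73, 1.49 and 127 CPM in MPS 10, 11 and 14, and at 2.28, 3.65, 5.36 and 1.56 CPM in NC 4, 5, 6 and 7. Apart from MPS 14, the groups overlapped. Mcm3 was 51.0-fold higher in MPS 14 than in the pooled others (95% interval 45.3 to 57.6). The other helicase subunits spread over a wide range of folds. Mcm5 was 36.8-fold and Mcm6 21.5-fold higher in MPS 14, Mcm2 10.1-fold, Mcm4 6.71-fold and Mcm7 2.90-fold. Cdc6, which loads the helicase, stood at 0.191, 0 and 0.355 CPM in TZG 26, 27 and 43, at 0.182, 0.11 and 8.5 CPM in MPS 10, 11 and 14, and at 0.221, 0.0793, 0.521 and 0 CPM in NC 4, 5, 6 and 7. Its 116 counts in MPS 14 compare with 24 over the other 9 libraries together, a 46.4-fold difference. All 7 of these genes had their second-highest level in NC 6, a library taken up again below.

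Set side by side per gene length, as FPKM, the helicase subunits had unlike levels in muscle and more even levels in MPS 14. Mcm7 was the highest subunit in each of the other 9 libraries. It stood at 10.2, 7.31 and 5.34 FPKM in TZG 26, 27 and 43, at 11.4, 9.04 and 26.5 FPKM in MPS 10, 11 and 14, and at 10.5, 7.95, 11.5 and 8.47 FPKM in NC 4, 5, 6 and 7. Mcm5 was the lowest subunit in every library. It stood at 0.333, 0.118 and 0.446 FPKM in TZG 26, 27 and 43, at 0.413, 0.259 and 13 FPKM in MPS 10, 11 and 14, and at 0.328, 0.374, 0.859 and 0.0779 FPKM in NC 4, 5, 6 and 7. The highest subunit was 3.33-fold above the lowest in MPS 14 and 11.97-fold to 108.7-fold above it in the others. The largest ratios rest on few counts of Mcm5, 4 in NC 7 (108.7-fold) and 6 in TZG 27 (62.0-fold). In NC 6, where Mcm5 had 44 counts, the ratio was 13.4-fold. In MPS 14 the highest subunit was Mcm3, at 43.4 FPKM, and the ratio of Mcm7 to Mcm3 was 0.612 there, against 4.91 to 21.97 elsewhere. The Mcm7 feature also holds the microRNA genes Mir106b, Mir25 and Mir93, but these had 5, 14 and 2 counts in all beside 3872 for Mcm7.

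**Figure D3:**
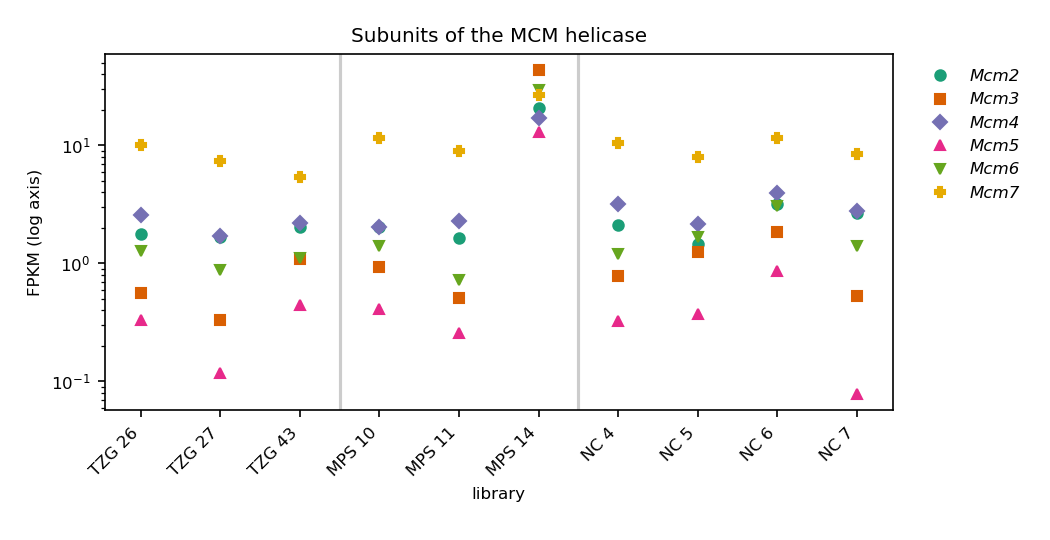
FPKM (log axis) of the 6 MCM helicase subunits in each library. Mcm5 is the bottom symbol in every library and Mcm7 the top one in all but MPS 14, where Mcm3 is on top at 43.4 FPKM and the spread from top to bottom is 3.33-fold.

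The fork clamp and the nucleotide enzymes had the smallest median fold of the role groups with more than 2 genes, 6.26. Pcna, the sliding clamp (chromosome 3, 124880698 to 124884570), stood at 21.1, 25.2 and 14.5 CPM in TZG 26, 27 and 43, at 26.2, 24.3 and 193 CPM in MPS 10, 11 and 14, and at 37.3, 31.1, 42.3 and 60.7 CPM in NC 4, 5, 6 and 7. MPS 14 was highest, and without it both the TZG and the MPS values lay below all 4 NC values. Rrm1, the large subunit of ribonucleotide reductase, was only 3.51-fold higher in MPS 14, at 130.3 CPM against 24.5 to 52.3 CPM elsewhere. Its partner Rrm2, the small subunit, which is made in the S phase of the cycle, was 166-fold higher there (95% interval 61.8 to 625). That value rests on 69 counts in MPS 14 against 4 over the other 9 libraries, of which 6 libraries had none. A count of 0 allows a level of up to 3 counts, or 0.165 to 0.238 CPM depending on the library. Per length, Rrm1 and Rrm2 stood at 31.9 and 4.31 FPKM in MPS 14. In the other libraries Rrm1 stood at 5.99 to 12.8 FPKM and Rrm2 at no more than 0.127 FPKM. Tyms, thymidylate synthase, and Tk1, the cytosolic thymidine kinase, were 11.8-fold and 5.56-fold higher in MPS 14.

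Cyclins and their kinase had a median fold of 41.2 in MPS 14. Ccnb1, cyclin B1 of mitotic entry, stood at 1.14, 0.15 and 1.28 CPM in TZG 26, 27 and 43, at 0.424, 0.495 and 26.6 CPM in MPS 10, 11 and 14, and at 0.147, 0, 1.19 and 0.149 CPM in NC 4, 5, 6 and 7. Outside MPS 14 its 3 highest values were in TZG 43, NC 6 and TZG 26, so they did not fall in 1 group. It was 47.1-fold higher in MPS 14 (95% interval 36.6 to 61.3). Ccne1, cyclin E1 of the step into S phase, had 101 counts in MPS 14 but 11 over the other 9 libraries, 6 of which had none, a fold of 88.1. Ccna2, cyclin A2 of S phase and mitosis, stood at 26.5 CPM in MPS 14 and at 0.0606 to 2.27 CPM elsewhere. The Ccna2 feature overlaps Exosc9 over 6334 bases, its whole length, and Exosc9 had 2973 counts to the 459 of Ccna2, so reads may have been shared between them. Cdk1, the kinase that cyclins A and B activate, was 12.6-fold higher in MPS 14, at 15.4 CPM against 0 to 3.80 CPM. Foxm1, a transcription factor that switches on mitotic genes, stood at 4.84 CPM in MPS 14 and at 0.243 to 1.43 CPM elsewhere, a 4.99-fold difference.

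Mitotic kinases and checkpoint genes ranged from 3.87-fold to 187-fold higher in MPS 14. Bub1, a kinase of the spindle checkpoint, stood at 2.1, 2.25 and 4.26 CPM in TZG 26, 27 and 43, at 2.67, 2.92 and 31.7 CPM in MPS 10, 11 and 14, and at 2.72, 3.96, 4.84 and 2.97 CPM in NC 4, 5, 6 and 7. It was detected at 2 CPM or more in every library, and the 3 groups overlapped apart from MPS 14, where it was 10.1-fold higher than in the pooled others. Bub1b, the checkpoint protein BubR1, was the gene with the largest fold, 187 (95% interval 83.4 to 520), from 117 counts in MPS 14 against 6 over the other 9 libraries, 7 of which had none. Aurkb, the kinase of the chromosomal passenger complex, stood at 24.8 CPM in MPS 14 and at 0.0736 to 1.49 CPM elsewhere, a 40.0-fold difference. Ttk, the checkpoint kinase Mps1, was 35.9-fold higher in MPS 14, and Plk1, a kinase of centrosomes and kinetochores, 10.9-fold. Aurka, the centrosomal Aurora kinase, was 3.87-fold higher.

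Spindle motors, kinetochore and passenger proteins included Kif11, which had the largest fold of any gene in the set with 50 or more counts outside MPS 14, and Tpx2, the exception. Kif11, the kinesin that pushes spindle poles apart (chromosome 1, 256035866 to 256088299), stood at 0.635, 0.6 and 0.994 CPM in TZG 26, 27 and 43, at 0.242, 0.715 and 38.3 CPM in MPS 10, 11 and 14, and at 0.147, 0.317, 1.42 and 0.149 CPM in NC 4, 5, 6 and 7. The highest value outside MPS 14 was that of NC 6, and the groups overlapped. Kif11 was 66.0-fold higher in MPS 14 (95% interval 51.8 to 85.2). The kinetochore genes Cenpe and Cenpf were 26.9-fold and 23.9-fold higher there, Birc5, the passenger protein survivin, 15.4-fold, and the cytokinesis motors Kif23 and Kif20a 14.5-fold and 5.75-fold. Kif20a shares 1910 bases with Cdc23, which had 1747 counts beside its 502. Tpx2, which activates Aurka and nucleates spindle microtubules (chromosome 3, 148327965 to 148370187), stood at 7.43, 8.26 and 3.55 CPM in TZG 26, 27 and 43, at 48.7, 14.5 and 18.4 CPM in MPS 10, 11 and 14, and at 14.2, 75.4, 53.7 and 80.3 CPM in NC 4, 5, 6 and 7. It ran against the other genes: its highest levels were in NC 7, NC 5, NC 6 and MPS 10, and all 3 TZG values were its lowest. In MPS 14 it was at 0.561 of the pooled level of the other libraries (95% interval 0.492 to 0.638).

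Of the mitotic exit genes, Cdc20, the activator of the anaphase-promoting complex, stood at 1.4, 1.2 and 1.49 CPM in TZG 26, 27 and 43, at 3.03, 1.98 and 11.1 CPM in MPS 10, 11 and 14, and at 0.368, 1.67, 3.13 and 1.26 CPM in NC 4, 5, 6 and 7. Each TZG value lay below each MPS value, and the NC values overlapped those of TZG and of MPS 10 and 11. Ube2c, the ubiquitin-conjugating enzyme of that complex, stood at 14.4 CPM in MPS 14 and at 0.372 to 1.94 CPM elsewhere. The chromosome structure genes had the highest median fold of the role groups, 45.9. Mki67, the surface protein of mitotic chromosomes that marks cycling cells, stood at 2.99, 0.976 and 5.82 CPM in TZG 26, 27 and 43, at 0, 1.71 and 82.2 CPM in MPS 10, 11 and 14, and at 1.03, 2.3, 6.03 and 0.223 CPM in NC 4, 5, 6 and 7. It was read at 0 in MPS 10 and at 6.03 CPM in NC 6, and was 35.9-fold higher in MPS 14 than in the pooled others. Top2a, the topoisomerase that untangles sister DNA, was 55.9-fold higher in MPS 14, at 72.1 CPM against 0.0736 to 3.65 CPM.

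Other cell cycle genes were read from 4 lists beside the 34. Of 30 further mitosis genes, 30 had their highest level in MPS 14, with a median fold of 14.6; Racgap1, of the cytokinesis machinery, was 66.1-fold and Ncapg, a condensin subunit, 62.7-fold higher. Of 30 further replication genes, 28 were highest there, with a median fold of 5.04. Clspn, the fork protein claspin, led at 40.8-fold, and Cdc45 and Pola2 were the exceptions, with Cdc45 at 66.8 CPM in MPS 14 and at 1.82 to 150.9 CPM elsewhere, and Pola2 at 0.636 of its pooled level in the others. All 12 G1 cyclins, kinases and their regulators were highest in MPS 14, with a median fold of 4.40; E2f2, a transcription factor of S phase entry, was 12.4-fold and Myc 10.6-fold higher, and Cdc25a was 1.75-fold higher. The list of brakes on the cycle was mixed, with 12 of 19 highest in MPS 14, near the 55.7% of features, and a median fold of 3.70. Btg1, an antiproliferative gene, stood at 1608 CPM in MPS 14 and at no more than 92.5 CPM elsewhere, while Tob1, of the same family, stood at 23.97 CPM in MPS 14 and at 72.3 to 220.8 CPM elsewhere, and Gadd45a, a stress-induced brake, at 12.7 CPM against 22.7 to 68.9 CPM.

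Markers of several cell types moved with the division genes in MPS 14. Beside the T and B cell markers above, the sums for plasma cells were 486.1 CPM in MPS 14 and 17.99 to 44.4 CPM elsewhere. For macrophages they were 657.1 CPM and 30.0 to 205.6 CPM. Of the 6 macrophage markers, 5 were highest in MPS 14 (55.7% of features), and the other stood at 0.613 of its pooled level elsewhere. Of the satellite cell markers, Pax7 had no count in MPS 14, which allows up to 0.220 CPM, and stood at 0.11 to 1.10 CPM elsewhere. Myf5 was at 0.806 CPM in MPS 14 against 2.41 to 5.96 CPM elsewhere, Cdh15 at 2.20 against 15.2 to 30.3 CPM, Myod1 at 5.28 against 37.5 to 175.1 CPM and Chodl at 4.62 against 4.61 to 17.2 CPM. The sum of the 6 satellite cell markers was 332.7 CPM in MPS 14 and 79.0 to 230.7 CPM elsewhere, with 319.8 CPM of it from Vcam1, an adhesion molecule that other cell types also carry. The sum of the 5 endothelial markers, 349.1 CPM, lay within the range of the other libraries, 120.7 to 871.2 CPM, as did that of the 6 fibroblast markers, 2182 CPM against 662.0 to 3929 CPM. The sum of the 4 erythroid markers was 64.3 CPM in MPS 14 and 194.4 to 986.4 CPM elsewhere. The part of these cell types in the levels of the division genes was not tested.

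Among the 4 NC libraries, NC 6 was highest for most of the division genes, although their sum was close to that of NC 7 in plain CPM and below it in normalised CPM. It was the highest NC library for 27 of the 34 genes in plain CPM, against 44.4% of features, and for 25 of the 34 in normalised CPM, against 23.2%. Cdk1 stood at 1.78, 0.3 and 1.84 CPM in TZG 26, 27 and 43, at 0.97, 1.1 and 15.4 CPM in MPS 10, 11 and 14, and at 0.515, 0.634, 3.8 and 0 CPM in NC 4, 5, 6 and 7. NC 6 was the highest value after MPS 14, and NC 7 had no count. Over the 9 libraries other than MPS 14, NC 6 was highest for 19 of the 34 genes in plain CPM (28.5% of features), but for 6 of 34 in normalised CPM (7.03%), so that rank depended on the scaling; with TZG 43 left out as well it was 23 of 34 in plain CPM (31.6%). In plain CPM, NC 6 also had the highest sum of 6 macrophage markers of these 9 libraries, 205.6 CPM against 30.0 to 153.0 CPM in the others. That rank depended on the scaling as well: with TMM factors of 0.7336 in TZG 43 and 1.295 in NC 6, TZG 43 was highest. The T cell and B cell sums of NC 6 were 3.65 and 0.223 CPM. Whether the macrophage sum bears on the division genes was not tested. Within the TZG group, TZG 43 was highest for 24 of the 34 genes in plain CPM (24.6% of features) and for 26 in normalised CPM (37.8%). It also had the highest sums of keratinocyte, fibroblast and erythroid markers, 91.0, 3929 and 986.4 CPM, and the lowest endothelial sum, 120.7 CPM. Its macrophage sum was 153.0 CPM, against 74.0 and 30.0 CPM in TZG 26 and 27, and its T cell sum of 5.61 CPM was the highest outside MPS 14, next to 5.46 CPM in TZG 26. Their part was not tested.

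No cell division gene passed the test in MPS against NC. edgeR's quasi-likelihood test was run on 13535 features that passed its filter on low counts, with Benjamini-Hochberg adjustment over all of them, and 28 of the 34 genes were among them. Bub1b, Ccne1, Cdc6, Rrm2, Birc5 and Ttk did not pass the filter. Neither edgeR nor limma-voom called any feature of the table in this comparison (0.0% in each direction), and DESeq2 called 0 of the 21 genes to which it gave an adjusted p, against 1.58% of features. It gave none to the other 7, Kif11, Ccnb1, Mcm2, Mcm3, Mcm5, Aurkb and Cenpe. At an unadjusted p under 0.05, edgeR had 12 of the 28, against 10.7% of all features. On the log2 fold change scale 27 of the 28 were above 0, against 59.3% of features, and the median was 1.54 for the genes and 0.13 for all features. The labels do not say that libraries are separate animals, so p-values measure only the spread between these samples, which may be technical. The 3 comparisons share libraries with each other, so their values are not independent.

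The single genes with the smallest p in MPS against NC were Tk1, Kif11, Ccnb1 and Mcm3. The log2 fold change of Tk1 was 1.56 ± 0.51 (SE; edgeR adjusted p = 0.398) and that of Kif11 4.08 ± 1.34 (adjusted p = 0.398). Ccnb1 had 4.03 ± 1.45 and Mcm3 3.14 ± 1.13, both with an edgeR adjusted p of 0.416. The values of Kif11, Ccnb1 and Mcm3 rest on MPS 14. In the fit of 13719 features without it, the median of the same 28 genes was -0.08 against -0.02 for all features, and 12 of the 28 were above 0, against 48.2% of features. The value of Mcm3 was then -0.33, that of Kif11 0.28 and that of Ccnb1 0.64. edgeR called 307 features higher (2.24%) and 55 lower (0.401%) in that fit, none of them a cell division gene; limma-voom called 0 of the 28 too, against 2.83% of features, and DESeq2 0 of the 25 with an adjusted p, against 8.38%. In the edgeR fit 1 gene, Tk1, had an unadjusted edgeR p under 0.05, against 20.6% of features.

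Tk1 kept its direction with and without MPS 14. It stood at 3.11, 2.63 and 3.55 CPM in TZG 26, 27 and 43, at 4.49, 4.62 and 18.1 CPM in MPS 10, 11 and 14, and at 1.32, 3.33, 4.32 and 1.19 CPM in NC 4, 5, 6 and 7. All MPS values lay above all NC values, by a narrow margin against NC 6, and in plain CPM all TZG values lay below all MPS values. In normalised CPM they did not, with TZG 43 at 5.10 CPM above MPS 10 at 4.82 CPM. In plain CPM, Tk1 was the only one of the 28 genes with MPS wholly above NC, a pattern of 3.51% of features with all libraries and 9.44% without MPS 14. In normalised CPM, Aurka and Mcm7 were so as well, in both sets of libraries, against 5.28% and 20.1% of features. Its mean was 4.55 ± 0.10 CPM in MPS without MPS 14 (SD, n = 2) and 2.54 ± 1.54 CPM in NC (SD, n = 4). The log2 fold change without MPS 14 was 1.14 ± 0.48 (edgeR adjusted p = 0.214).

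Pcna was the next gene by p in that fit, at -0.49 ± 0.25 (edgeR adjusted p = 0.304), and the only one of the 28 with MPS 10 and 11 wholly below NC, in plain CPM (31.6% of features) and in normalised CPM (18.5%). It was followed by Cenpe, at -1.76 ± 1.01 (edgeR adjusted p = 0.349), and Mcm7, at 0.37 ± 0.23 (0.385). By role, the tested helicase genes were above 0 in 2 of 6, the nucleotide and clamp genes in 1 of 4, the cyclin genes in 2 of 3, the kinases in 1 of 4 and the motors and kinetochore genes in 2 of 6, against 48.2% of features. Cdc20 stood at 0.94 ± 0.60, Ube2c at 0.13 ± 0.68 and Mki67 at -1.09 ± 1.40. Foxm1, at 0.013 ± 0.69, and Top2a, at 0.007 ± 1.10, were too close to 0 to have a direction. None of these passed the test. Of 78 tested genes in the 4 other cell cycle lists, 1 passed in this fit, a smaller share than that of all features. It was the G1 cyclin Ccnd3, with a log2 fold change of 0.80 ± 0.17 (edgeR adjusted p = 0.0317). In the same fit 2 of 6 fibroblast markers were called lower in MPS, Pdgfra at -1.32 ± 0.27 (edgeR adjusted p = 0.0317) and Dcn at -1.57 ± 0.37 (edgeR adjusted p = 0.0476), and all 6 macrophage markers were below 0, with a median of -1.87 and none called. Their part in the values of the division genes was not tested.

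No cell division gene passed the test in TZG against MPS either. With all libraries, edgeR and limma-voom called no feature of the table (0.0% in each direction) and DESeq2 called 0 of the 21 genes with an adjusted p, against 0.0232% of features, with none for the same 7 genes; 5 of the 28 had an unadjusted edgeR p under 0.05, against 5.17% of features. All 28 log2 fold changes were below 0, while 46.2% of features were above 0, with a median of -1.22 for the genes and -0.05 for all features. Mcm3 had -3.35 ± 1.28, Tpx2 -1.79 ± 0.71, Mcm6 -2.25 ± 0.95 and Pcna -1.18 ± 0.51, each with an edgeR adjusted p of 0.780. Without MPS 14, 22 of the 28 genes changed sign and were above 0, against 52.5% of features, and the median was 0.23, against 0.02 for all features. With TZG 43 left out as well, the median was 0.02 over the 24 genes then tested. Markers of some other cell types were also above 0 in the fit without MPS 14, none of them called. These were all 6 macrophage markers, with a median of 1.47, all 6 fibroblast markers (1.14) and all 4 tested T cell markers (1.97). The 5 endothelial markers were all below 0, with a median of -0.29, as was the 1 tested B cell marker. Fibroblast sums were 3929 CPM in TZG 43, 751.5 and 877.3 CPM in TZG 26 and 27, and 819.4 and 662.0 CPM in MPS 10 and 11. Macrophage sums were 153.0, 74.0 and 30.0 CPM in TZG 43, 26 and 27, and 48.55 and 37.0 CPM in MPS 10 and 11. Both were thus highest in TZG 43. The part of these cell types was not tested. Without MPS 14, Mcm3 stood at 0.12, Mcm6 at 0.23 and Pcna at -0.19, while Tpx2 stayed negative at -2.16 ± 0.70 (edgeR adjusted p = 0.979). Cenpe had 2.01 ± 1.05, Mki67 2.11 ± 1.49 and Ccna2 1.74 ± 1.29 (edgeR adjusted p = 0.979 each). edgeR called 1 feature higher (0.00729%) and 0 lower (0.0%) in that fit and 0 of the 28 genes, and so did limma-voom (0.0% of features) and DESeq2 (0.103%) for these genes; 1 of the 28 had an unadjusted p under 0.05, against 4.18% of features. In plain CPM, Tpx2, Tk1 and Cdc20 had TZG wholly below MPS, with all libraries (7.29% of features) and without MPS 14 (11.6%). In normalised CPM these were Tpx2, Cdc20 and Pcna (2.98% and 8.37% of features), and Cenpe had TZG wholly above MPS without MPS 14 (7.35% of features). The margin of Cenpe was slight, 0.308 CPM in TZG 27 (4 counts) against 0.306 CPM in MPS 10 (5 counts). In plain CPM these 2 libraries had the reverse order.

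**Figure D4:**
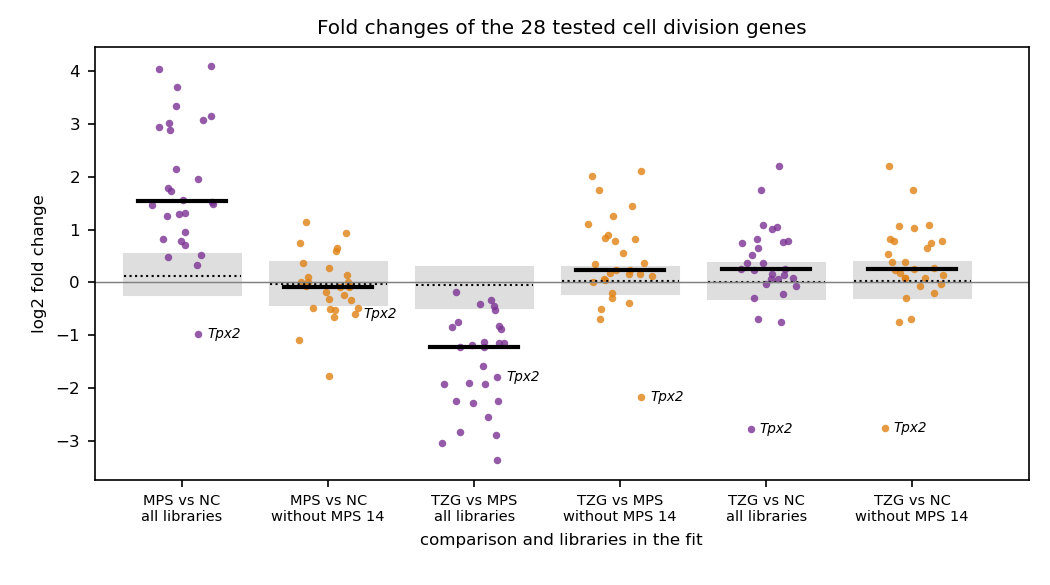
Log2 fold changes of the 28 tested cell division genes (points) in the 3 comparisons, with all libraries (purple) and without MPS 14 (orange). Thick bars are the medians of the genes, dotted lines the medians of all features and grey boxes their middle range between quartiles; the MPS against NC median moved to -0.08 without MPS 14, against 1.54 with it, and Tpx2 is named in each column.

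No cell division gene passed edgeR's test in TZG against NC. After TMM scaling the genes leaned above 0 as a set. Their median was as low as 0.03 with all libraries but 1, a TZG or NC library. It was below 0 once TZG 43 and MPS 14 were both left out. The TZG values of 2 of the 28, Tpx2 and Pcna, lay below all NC values. That is no larger a share than that of all features, 24.4% in plain CPM and 8.22% in normalised CPM with all libraries. With all libraries edgeR called no feature (0.0% in each direction), and in the fit without MPS 14, 9 features higher (0.0656%) and 2 lower (0.0146%), none of them among the 28 genes; limma-voom called 0 of the 28 in both fits, against 0.0% and 0.0729% of features. Of the 28, 21 log2 fold changes were above 0 in either fit, against 51.3% and 52.3% of features. Their median was 0.25 with all libraries and 0.26 without MPS 14, against 0.02 and 0.03 for all features. The direction of some genes depended on the scaling. In plain CPM the TZG mean lay below the NC mean for Mcm2 (5.95 against 7.70 CPM) and Bub1 (2.87 against 3.63 CPM). In normalised CPM with all libraries it lay above, at 7.47 against 7.03 CPM and 3.70 against 3.34 CPM. Others, such as Tk1 and Cenpf, had the higher mean in TZG in plain CPM too. At an unadjusted p under 0.05 there was 1 of 28 with all libraries (5.5% of features) and 3 of 28 without MPS 14 (18.8% of features). With TZG 43 left out as well as MPS 14, the median was -0.03 over the 24 genes then tested.

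Tpx2 averaged 6.41 ± 2.51 CPM in TZG (SD, n = 3) and 55.9 ± 30.1 CPM in NC (SD, n = 4). Its log2 fold change was -2.77 ± 0.71 with all libraries (edgeR adjusted p = 0.865) and -2.75 ± 0.65 without MPS 14 (edgeR adjusted p = 0.0840). DESeq2 called it lower, with an adjusted p of 0.0160 with all libraries and 4.21e-05 without MPS 14, and it was the only gene of the set that either fit of DESeq2 called, out of 20 and 9 with an adjusted p, against 0.462% and 8.18% of features. The call therefore depended on the tool, while the direction did not change when any TZG or NC library was left out, with log2 fold changes of -3.08 to -2.52 in both fits. Pcna averaged 20.3 ± 5.42 CPM in TZG (SD, n = 3) and 42.9 ± 12.8 CPM in NC (SD, n = 4). Its log2 fold change without MPS 14 was -0.68 ± 0.22 (edgeR adjusted p = 0.149). In plain CPM, Tpx2 and Pcna had TZG wholly below NC, a pattern of 24.4% of features with all libraries and 24.1% without MPS 14; both did in normalised CPM too (8.22% and 7.79%).

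Aurka, the kinase that Tpx2 activates, did not follow it. It stood at 3.5, 2.33 and 2.63 CPM in TZG 26, 27 and 43, at 2.67, 2.86 and 9.97 CPM in MPS 10, 11 and 14, and at 1.84, 2.38, 3.13 and 1.56 CPM in NC 4, 5, 6 and 7. The TZG and NC values overlapped. The log2 fold change in TZG against NC was 0.77 ± 0.40 with all libraries (edgeR adjusted p = 0.879) and 0.78 ± 0.35 without MPS 14 (edgeR adjusted p = 0.254). Cenpf stood at 0.318, 0.375 and 2.27 CPM in TZG 26, 27 and 43, at 0.182, 0.66 and 13.5 CPM in MPS 10, 11 and 14, and at 0, 0.159, 0.894 and 0.223 CPM in NC 4, 5, 6 and 7. TZG 43 was far above the other TZG libraries, which lay between the NC values. Its log2 fold change in TZG against NC was 2.20 ± 1.38 with all libraries (edgeR adjusted p = 0.879) and 2.20 ± 1.08 without MPS 14 (edgeR adjusted p = 0.300), but 0.49 with all libraries except TZG 43. Tk1, the fourth gene by p with all libraries, had 0.74 ± 0.51 (edgeR adjusted p = 0.893).

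**Figure D5:**
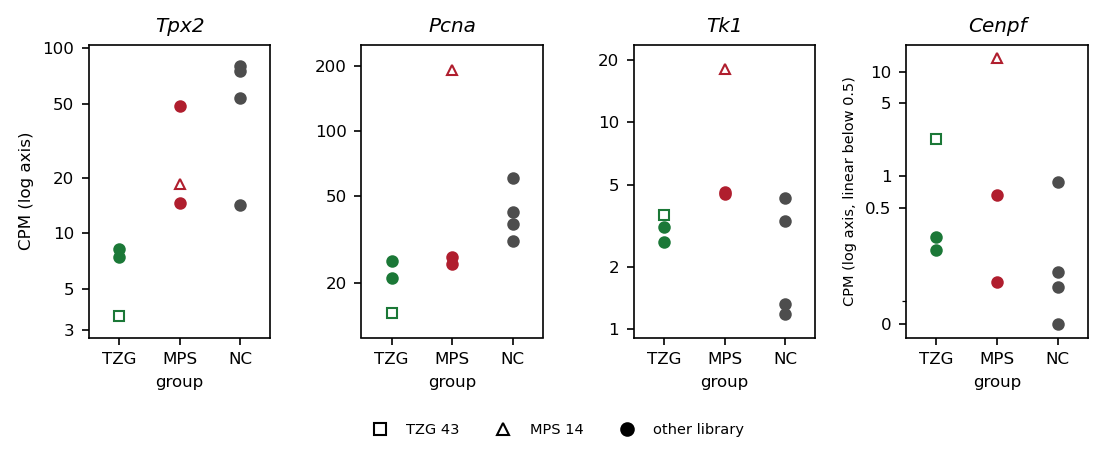
CPM of Tpx2, Pcna, Tk1 and Cenpf in each library by group (log axes, linear below 0.5 CPM for Cenpf), with TZG 43 and MPS 14 as open symbols. The TZG values of Tpx2 (3.55 to 8.26 CPM) and Pcna (14.5 to 25.2 CPM) lie below all NC values, as for 24.4% of features. The TZG mean of Cenpf rests on TZG 43 at 2.27 CPM.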

How the data were processed

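Total RNA from muscle was made into messenger RNA libraries with a SMARTER kit, per the labels' protocols. Per the submitters' processing notes, the tools included StringTie 1.3.3b and HISAT2, with fastp, and edgeR 3.30.3. The genome build and the use of strand in counting are not given in the sources used here, so genes that overlap others are uncertain. The authors deposited a whole-number count per feature and library, and FPKM, per the file headers; FPKM equalled counts per length and library total within 0.1% in 100% of the cells checked (minimum count 50). The 2 deposited tables are identical and 1 was used.

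The 34 genes, the role groups, the 15 lists beside them and the treatment of MPS 14 and TZG 43 were chosen with earlier results of these data known. CPM were computed from the counts. Normalised CPM divide by the total times its TMM factor. Tests were edgeR 4.0.16 quasi-likelihood fits (filterByExpr, TMM factors, robust dispersion, 3 groups in 1 fit, Benjamini-Hochberg adjustment over all features tested, threshold 0.05) in R 4.3.3, on all 10 libraries and on the 9 without MPS 14. The fit was tested on simulated data. The genes named with a fold change and p are, where none passed, the 4 with the smallest p in each comparison and fit; a few others are named after their values were seen, for a direction that holds or turns. Alternatives were RLE factors, totals without mitochondrial transcripts, no filter, a mean of at least 1 CPM, DESeq2 1.42.0, limma-voom (limma 3.58.1), the compared groups alone and a log2 fold change limit of 1. In each comparison, every library of the compared groups was also left out in turn. Ranks, sums and group overlaps in normalised CPM, sums without the 3 most abundant genes, and NC 6 ranked without TZG 43, were added after the values were seen. Folds of MPS 14 over the pooled other 9 libraries have 95% exact binomial intervals, which cover counting error only. Motifs were searched on both strands of RefSeq promoters (GRCr8) in Python 3.11.15, and plots were drawn with matplotlib 3.10.9. Markers of germinal centre B cells are not reported here.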

Additional observations from a re-analysis of the deposited data

Results flagged for a closer look

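In the 4 NC libraries, the gap between the highest value and the next, divided by the whole range, passed Dixon's critical value for 4 samples for 8 of the 34 cell division genes, and NC 6 was the high library in all 8. The criterion flags about 1 group in 20 by chance, and the genes are not independent of each other. For 4 of the 8 the other NC libraries had no count, so that any count in NC 6 passes and that rate does not apply. In NC 6, Kif11 stood at 1.42 CPM (the other NC libraries at most 0.317), Ccna2 at 2.16 CPM (at most 0.396), Ccnb1 at 1.19 CPM (at most 0.149) and Cdk1 at 3.80 CPM (at most 0.634). Ttk stood at 0.521 CPM (7 counts), Ccne1 at 0.372 CPM (5 counts), Rrm2 at 0.149 CPM (2 counts) and Bub1b at 0.0745 CPM (1 count), with no count in the other NC libraries. In normalised CPM, 6 genes were flagged, again with NC 6 as the high library. They were the 4 with no count in the other NC libraries, together with Ccna2 and Ccnb1. Kif11 and Cdk1 no longer passed, so their flags depended on the scaling.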

How the results depend on the processing

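No cell division gene was called by edgeR under any alternative, nor with any library of the compared groups left out. The exception among tools was DESeq2, which called 1 gene lower in TZG against NC, both with all libraries and without MPS 14: Tpx2, at log2 fold changes of -2.76 and -2.76. NC 6 was highest of the 9 libraries other than MPS 14 for 6 genes in normalised CPM, against 19 in plain CPM. The summed genes lay below every NC sum in 1 TZG library in normalised CPM, and in 1 without the 3 most abundant genes, against 3 in plain CPM. MPS lay wholly above NC for 3 genes in normalised CPM, with and without MPS 14, against 1 in plain CPM. Leaving out MPS 14 turned the sign of 15 of the 28 tested genes in MPS against NC, 22 of 28 in TZG against MPS and 0 of 28 in TZG against NC. Among the 4 genes named by p in each comparison, those that turned were Mcm3 in MPS against NC, to -0.33 (range over libraries left out -0.33 to 3.67), Mcm3 in TZG against MPS, to 0.12 (-4.05 to 0.12) and Mcm6 in TZG against MPS, to 0.23 (-2.75 to 0.23). The cause was not tested. With 1 library left out, the median over the genes tested in each fit ranged from -0.08 to 2.03 in MPS against NC, from -1.62 to 0.23 in TZG against MPS and from 0.03 to 0.49 in TZG against NC. In the fit without MPS 14 the ranges were -0.20 to 0.01, 0.02 to 0.48 and -0.03 to 0.50. There, leaving out MPS 10 or MPS 11 left 1 MPS library, which was assumed to vary like the other groups. No paired analysis was possible because the groups share no sample numbers. Depth limits the genes at a few counts outside MPS 14, of which 6 were not tested.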
